A study of Homo sapiens with 6 samples.

Results

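The genes followed here encode the apolipoproteins and the lipoprotein assembly factors of liver cells, and they were read from RNA sequencing of a human line labelled HCC cell line: APOA1, APOA2, APOB, APOC1, APOC3, APOE, APOH, APOM, MTTP and LCAT. They were chosen by name, and all 10 were found among the 58676 gene IDs of the deposited table. The knockdown group was represented by replicates 1 and 3, whose titles name a sponge, and the control group by replicates 1, 2 and 3, whose titles carry a numeric code. The series title names miR-19a, and a sponge is a transcript whose binding sites occupy a microRNA. All cultures were grown in DMEM with FBS. The sources used here do not give the identity of the line, the sponge construct, whether cells were a clone or a pool, or the time of harvest. Knockdown replicate 2 was left out because its values did not follow the order of the gene IDs: its rank correlation with each of the other libraries was 0.0173 to 0.0191, against 0.822 to 0.887 among those 5.

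Apolipoproteins are the protein coat of the particles that carry lipid in blood. The liver builds very low density lipoprotein around APOB, which stays on its particle for life, and MTTP loads lipid onto it in the endoplasmic reticulum. APOE and the C apolipoproteins move between particles and govern their uptake and lipolysis, while APOA1 and APOA2 form the scaffold of high density lipoprotein, whose cholesterol LCAT esterifies.

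The values were RPKM, reads per kilobase of exon and scaled to the reads assigned to genes, as the authors deposited them. Assigned reads, recovered from those values, came to 9296308 and 15198231 in knockdown replicates 1 and 3, and to 9181567, 1948940 and 19605312 in control replicates 1, 2 and 3. The mitochondrial share of reads was 8.30% and 7.83% in the knockdown libraries and 7.40%, 10.4% and 4.94% in the controls. The labels do not say that replicates were grown apart, so every p here may rest on technical spread alone. Fewer hepatocyte-like cells and less RNA per cell cannot be told apart in such bulk samples. All 10 hepatocyte markers checked, among them ALB, TTR and HNF4A, were at 1 RPKM or more in every library, and ALB lay at 652.4 to 950.9 RPKM over the 5 libraries. The summed level of the 10 was 1451 to 1545 RPKM in the knockdown libraries and 1231 to 1540 RPKM in the controls. Both knockdown libraries were above all controls for 3 of the 10 and below them for 0. Over the 15408 genes tested, 14.3% were above and 13.6% below in this way. Of 5 blood markers HBB was listed at 0 everywhere, PTPRC did not exceed 0.0713 RPKM and CD68 did not exceed 0.234 RPKM. CD14 was at 28.6 to 38.4 RPKM, and CD3D had 6.14 and 6.09 RPKM in knockdown against 4.46, 3.87 and 3.08 RPKM in control, with no overlap. Of the endothelial markers KDR was listed at 0 in all 5 libraries, and PECAM1 did not exceed 0.661 RPKM but was lower in knockdown without overlap. The sum of 5 intestinal markers was 87.9 to 95.45 RPKM in knockdown and 98.25 to 106.3 RPKM in control. Of these 5, 2 were higher and 1 lower without overlap. The sum of 4 fetal liver markers was 673.5 to 716.6 RPKM in knockdown and 558.6 to 693 RPKM in control, with 1 higher and 1 lower. Of 8 fibroblast and stellate markers, whose sum was 68.4 to 72.5 RPKM in knockdown and 63.9 to 83.7 RPKM in control, DCN did not exceed 0.0102 RPKM but LUM was at 53.5 to 68.3 RPKM. COL1A2 had 14.7 and 12.02 RPKM in knockdown against 8.79, 7.54 and 11.7 RPKM in control, and COL1A1 2.33 and 2.16 RPKM against 1.21, 0.732 and 1.99 RPKM, both without overlap. PDGFRA and COL3A1 were lower in knockdown, also without overlap. PDGFRA had 0.431 and 0.352 RPKM in knockdown against 0.795, 0.58 and 1.11 RPKM in control, and COL3A1 did not exceed 0.157 RPKM. Of 5 biliary markers, 3 were at 1 RPKM or more in every library, and without overlap between groups KRT19 and KRT7 were higher and SOX9 lower in knockdown. Their sum was 360.3 to 467.3 RPKM in the knockdown libraries and 220.7 to 358.4 RPKM in the controls, while CFTR stayed at or under 0.540 RPKM and KRT7 at or under 0.683 RPKM. KRT19 led that sum, at 280.6 and 377.7 RPKM in the knockdown libraries against 262.3, 154.0 and 273.3 RPKM in the controls, and the part of these markers in the results was not tested.

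The mature miR-19 sequences from RefSeq (GRCh38.p14) are shown because the series is named for this microRNA, with the seed, bases 2 to 8, in capitals. The hsa-miR-19a-3p sequence lies at chr13:91350939-91350961 on the plus strand, and hsa-miR-19b-3p, which has the same seed, is encoded on chromosomes 13 and X.
hsa-miR-19a-3p: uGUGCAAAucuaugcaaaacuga
hsa-miR-19b-3p: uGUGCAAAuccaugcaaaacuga
The matching site, TTTGCAC on the sense strand, was looked for in each member's longest 3' UTR in GENCODE release 29, which measured 57 to 1151 bases. It was found in APOM alone among the 10, at base 104 of a 294-base 3' UTR on chromosome 6, shown here with the site in capitals.
APOM site: aggtttctgagTTTGCACtggataaaggg
Of 19436 coding genes, 14.2% carried the site, with a median 3' UTR of 3033 bases against 1336.5 bases over all of them. APOE, APOC1, APOC3, APOB, APOA1, APOA2, APOH, MTTP and LCAT had no match to these 7 bases in that UTR, which says only that these letters are not there. MTTP and LCAT each held 1 match to either of its 6-base parts, TTTGCA or TTGCAC, and APOM held the 2 that make up its site.

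The 10 transcripts spanned more than 100-fold in abundance. APOE was the most abundant, averaging 558.1 RPKM over the 5 libraries and ranking 41 among 19922 coding genes, followed by APOA2 at 532.1 RPKM. APOB averaged 95.9 RPKM, APOC1 88.7 RPKM, APOC3 36.3 RPKM, APOH 20.5 RPKM, MTTP 18.6 RPKM, APOA1 10.1 RPKM, LCAT 3.38 RPKM and APOM 2.73 RPKM. APOA2 thus stood 37.1 to 64.0 times above APOA1, the protein with which it shares high density lipoprotein. Within every library neighbours kept this order for APOA2 over APOB, APOC1 over APOC3, APOC3 over APOH, MTTP over APOA1 and APOA1 over LCAT. For APOC3 over APOH the lowest ratio was only 1.025. In control replicate 2 APOC3 had 18.96 RPKM (Poisson interval 12.97 to 26.77) and APOH 18.49 RPKM (13.63 to 24.52). Because these intervals overlapped, the rank of APOC3 over APOH was not settled. APOE exceeded APOA2 in 4 of 5 libraries, APOB exceeded APOC1 in 2 of 5, APOH exceeded MTTP in 4 of 5 and LCAT exceeded APOM in 3 of 5, so those ranks were not settled. Together the members took 0.345% and 0.351% of assigned reads in the knockdown libraries and 0.333%, 0.326% and 0.367% in the controls.

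**Figure D1:**
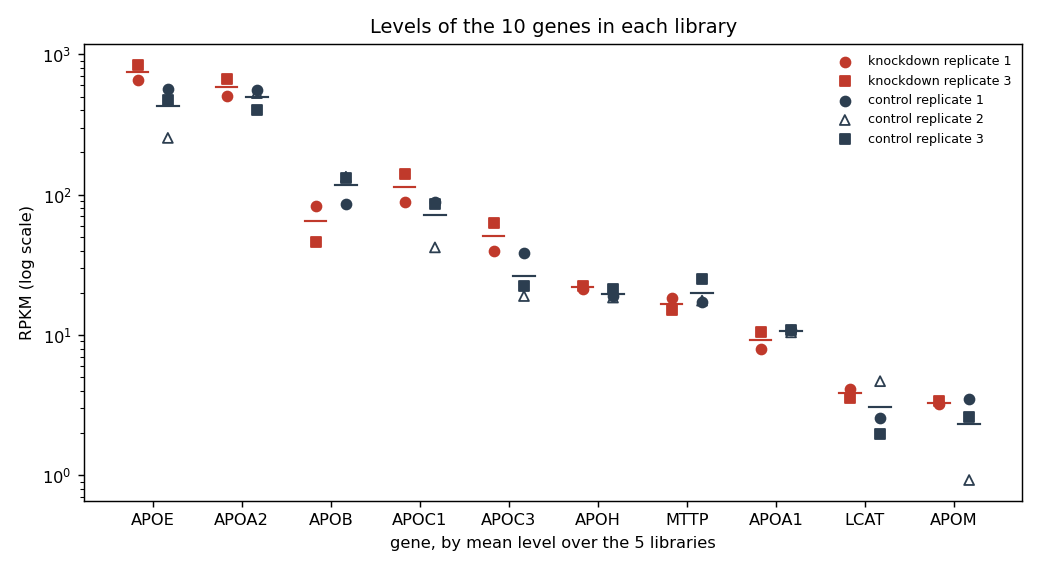
RPKM on a log axis for each of the 10 genes, with knockdown libraries in red left of control libraries in dark blue, and short lines for the group means (n = 2 knockdown, n = 3 control). APOE, with 654.7 and 841.9 RPKM in knockdown, lies above its 3 controls, and APOB, with 83.5 and 45.7 RPKM, lies below its own.

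The comparison of knockdown with control asked whether expression of these genes differs when miR-19 is sponged. It was tested with limma on log2(RPKM + 0.5), fitted to all 15408 genes with at least 0.5 RPKM in 3 or more libraries, and p-values were adjusted over all of them by the Benjamini-Hochberg method. All 10 members passed that filter. None was called at an adjusted p under 0.05, where the share of all genes called was 0%, and the members' adjusted p ran from 0.71 to 0.81. At an unadjusted p under 0.05, limma had 1 member higher (APOC3) and 1 lower (APOB), against 3.80% of all genes higher and 2.54% lower. With voom on the recovered reads 0 members were called, and before adjustment 2 members passed 0.05 as higher and 1 as lower, beside 747 higher and 885 lower of the 15408 genes. With sample weights added these were 0 called, 3 higher and 1 lower, beside 1074 higher and 932 lower of all genes. A log2 difference above 0 was found for 7 members and one below 0 for 3, where 7701 of the 15408 genes lay above 0, and the members' median was 0.29 against -0.00 for all genes. Both knockdown libraries were above all 3 controls for 2 members (APOC3 and APOE), where 14.3% of all genes were, and below them for 1 member (APOB), where 13.6% were. These shares of 10 members are near the background, and 10 groupings of 3 against 2 libraries cannot give an exact permutation p below 0.1.

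**Figure D2:**
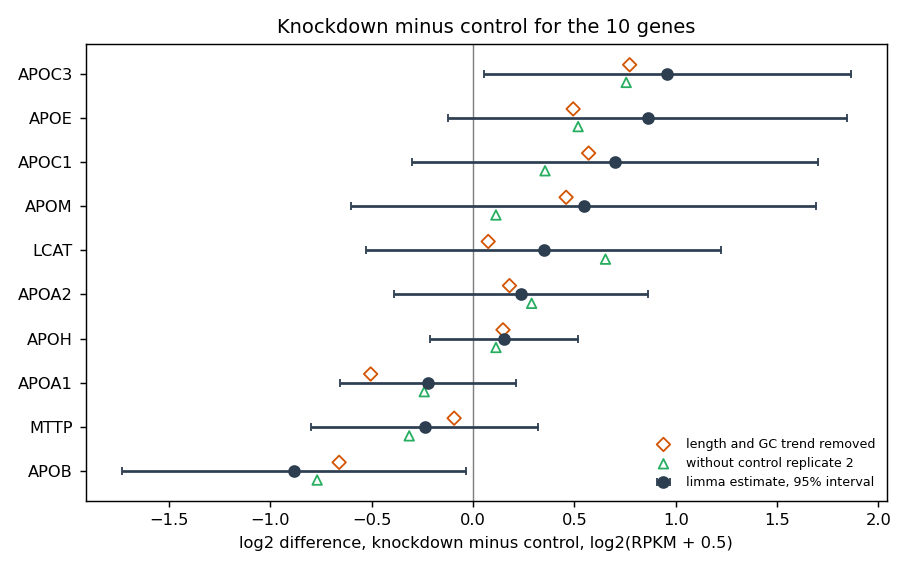
Log2 difference, knockdown minus control, for each gene from limma with its 95% interval (3 control and 2 knockdown libraries), with the value after removal of trends against exon length and GC (diamonds) and without control replicate 2 (triangles). APOC3 at 0.96 and APOB at -0.88 have intervals that do not cross 0, and the other 8 intervals do.

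APOB, the structural protein of very low and low density lipoprotein (ENSG00000084674, chromosome 2 from 21001429 to 21044073, minus strand, GRCh38), had 83.5 and 45.7 RPKM in knockdown replicates 1 and 3, against 85.6, 134.1 and 130.5 RPKM in control replicates 1, 2 and 3. Both knockdown values were below every control, but knockdown replicate 1 lay just under control replicate 1. The mean was 64.6 ± 26.7 RPKM (SD, n = 2) in knockdown and 116.7 ± 27.02 RPKM (SD, n = 3) in control, a log2 difference of -0.88 (SE 0.34, 95% interval -1.73 to -0.03). The limma adjusted p was 0.71 and the unadjusted p 0.0439, and an exact permutation test, two-sided, gave p = 0.2. Between 3874 and 37937 reads stood behind each value, and the exact Poisson 95% intervals reached at most 3.16% to either side. With knockdown replicate 3 left out the difference was -0.45, and with replicate 1 left out -1.31.

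MTTP encodes the large subunit of the microsomal triglyceride transfer protein (ENSG00000138823, chromosome 4 from 99563761 to 99623999, plus strand). It had 18.3 and 15.0 RPKM in the knockdown libraries, against 17.1, 17.6 and 25.1 RPKM in the controls. The groups overlapped, and control replicate 3 stood above the other 4 libraries. The log2 difference was -0.24 (SE 0.22, 95% interval -0.80 to 0.32, limma adjusted p = 0.79), and it was -0.07 without control replicate 3, -0.10 without knockdown replicate 3 and -0.38 without knockdown replicate 1. P4HB, the protein disulfide isomerase that is the other subunit of the transfer protein, had 164.4 and 164.8 RPKM in knockdown and 148.8, 127.0 and 171.4 RPKM in control, with a log2 difference of 0.15 (SE 0.19). APOB was 4.56 and 3.04 times MTTP in the knockdown libraries and 4.99, 7.62 and 5.21 times MTTP in the controls. These ranges do not overlap (exact permutation p = 0.1, the smallest possible here), but this ratio was chosen after the levels were seen.

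APOE, the ligand through which remnants reach hepatic receptors (ENSG00000130203, chromosome 19 from 44905754 to 44909393, plus strand), had 654.7 and 841.9 RPKM in knockdown, against 566.8, 253.6 and 473.7 RPKM in control. Both knockdown libraries were above all controls, and control replicate 2, the shallowest library, was by far the lowest. The means were 748.3 ± 132.4 RPKM (SD, n = 2) in knockdown and 431.4 ± 160.8 RPKM (SD, n = 3) in control, a log2 difference of 0.86 (SE 0.39, 95% interval -0.12 to 1.85, limma adjusted p = 0.71, exact permutation p = 0.2). It was 0.52 (SE 0.25) without control replicate 2. That library's APOE value rests on 1083 reads, with a Poisson 95% interval of 6.003% to either side.

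APOC1, an inhibitor of lipoprotein uptake whose gene follows APOE on chromosome 19 (ENSG00000130208, 44914247 to 44919349, plus strand), had 88.3 and 139.8 RPKM in knockdown, against 88.4, 42.1 and 85.1 RPKM in control. Knockdown replicate 1 and control replicate 1 were nearly equal, and control replicate 2 was again lowest. The log2 difference was 0.70 (SE 0.40, 95% interval -0.30 to 1.70, limma adjusted p = 0.72), or 0.36 without control replicate 2 and 0.37 without knockdown replicate 3. The nearby pseudogene APOC1P1, which resembles APOC1 and could share its reads, held 15 and 24 reads in knockdown and 12, 2 and 16 in control, against 101 to 2616 reads for APOC1.

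Of the 45 pairs of members, APOE and APOC1 had the most alike course over the 5 libraries, with a root mean square distance of 0.139 on the centred log2 scale, against a median of 0.555 over all pairs. APOE was 7.42 and 6.02 times APOC1 in the knockdown libraries and 6.41, 6.03 and 5.56 times APOC1 in the controls, so the ratio overlapped while both levels varied more than 3-fold. For this reason their promoters are shown, 250 bases before to 50 after a RefSeq start, at chr19:44905546-44905845 and chr19:44914422-44914721 of GRCh38.p14, plus strand, with GGGCGG (the GC box, either strand) in capitals.
APOE promoter: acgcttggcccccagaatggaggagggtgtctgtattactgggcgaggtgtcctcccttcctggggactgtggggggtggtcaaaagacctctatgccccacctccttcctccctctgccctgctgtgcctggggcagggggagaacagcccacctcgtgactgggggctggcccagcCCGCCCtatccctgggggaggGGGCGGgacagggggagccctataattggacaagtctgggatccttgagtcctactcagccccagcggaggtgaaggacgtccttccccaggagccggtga
APOC1 promoter: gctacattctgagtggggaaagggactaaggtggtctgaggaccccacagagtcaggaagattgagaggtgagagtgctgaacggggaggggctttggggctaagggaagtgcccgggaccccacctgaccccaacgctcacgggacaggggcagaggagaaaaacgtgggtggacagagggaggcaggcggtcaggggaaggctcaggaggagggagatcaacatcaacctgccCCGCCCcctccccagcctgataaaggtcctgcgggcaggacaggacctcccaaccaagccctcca
The first holds 2 GC boxes and the second 1, and 45.0% of 35116 promoters of that length hold at least 1. The MTTP window at chr4:99563880-99564179 also holds 2, and the log2 difference of MTTP was -0.24, so the motif is not particular to this pair. The windows at the other 2 RefSeq starts of APOE hold none, and this motif was chosen after the sequences were seen. Neither promoter shown holds TATAAA, CAAAGTCC (an HNF4 half-site) or TTGCNNAA (a C/EBP motif) on either strand, letters that occur in 11.5%, 1.196% and 10.5% of the promoters. Of other tested genes at this locus, the differences were 0.00 (SE 0.14) for NECTIN2, -0.20 (SE 0.19) for TOMM40 and 0.04 (SE 0.15) for CLPTM1. The noncoding gene AC011481.1, beside CLPTM1, had 5 and 10 reads in knockdown and 0, 0 and 7 in control, and its fitted value, 1.58 (SE 0.55, limma adjusted p = 0.71), depends on the pseudocount. APOC2 and APOC4, further members of the cluster, were under the level needed for a test, with at most 10 reads and 1 read in a library.

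APOC3, an inhibitor of lipoprotein lipase and of remnant uptake (ENSG00000110245, chromosome 11 from 116829706 to 116833072, plus strand), had 39.5 and 62.4 RPKM in knockdown, against 38.1, 18.96 and 22.4 RPKM in control. Both knockdown libraries were above all controls, but knockdown replicate 1 only just above control replicate 1. The means were 51.0 ± 16.2 RPKM (SD, n = 2) in knockdown and 26.5 ± 10.2 RPKM (SD, n = 3) in control. The log2 difference of 0.96 (SE 0.36, 95% interval 0.06 to 1.86) was the largest among the members, with a limma adjusted p of 0.71, an unadjusted p of 0.0411 and an exact permutation p of 0.2. Its lowest value, in control replicate 2, came from 32 reads. With knockdown replicate 3 left out the difference was 0.63.

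APOA1, the main scaffold of high density lipoprotein and the activator of LCAT, is transcribed from the opposite strand beside APOC3 (ENSG00000118137, 116835751 to 116837950). It had 7.93 and 10.5 RPKM in knockdown, against 10.9, 10.4 and 10.9 RPKM in control. The controls were close together, and knockdown replicate 3 lay among them. The value of control replicate 2 came from 29 reads, with an exact Poisson 95% interval of 6.998 to 15.01 RPKM. The log2 difference was -0.22 (SE 0.17, 95% interval -0.66 to 0.21, limma adjusted p = 0.76). With knockdown replicate 1 left out it was -0.03, and with knockdown replicate 3 left out -0.41. APOC3 was 4.98 and 5.95 times APOA1 in the knockdown libraries and 3.51, 1.81 and 2.05 times APOA1 in the controls (exact permutation p = 0.2). APOA4, the next gene of the cluster, had 2.41 and 2.73 RPKM in knockdown and 1.48, 1.39 and 1.73 RPKM in control, above all controls in both, with a log2 difference of 0.59 (SE 0.20, limma adjusted p = 0.71). Its value in control replicate 2 came from 4 reads. The APOA4 difference was 0.24 with reads thinned to the shallowest library and 0.35 with the trends against exon length and GC removed. SIK3, a kinase gene flanking the cluster, differed by -0.31 (SE 0.24). The antisense gene APOA1-AS held at most 2 reads in a library.

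APOA2, the second protein of high density lipoprotein (ENSG00000158874, chromosome 1 from 161222292 to 161223631, minus strand), had 507.6 and 662.4 RPKM in knockdown, against 557.9, 528.8 and 403.6 RPKM in control. Knockdown replicate 1 fell among the controls. The log2 difference was 0.24 (SE 0.25, 95% interval -0.39 to 0.86, limma adjusted p = 0.81). It was 0.43 without knockdown replicate 1, 0.04 without knockdown replicate 3 and 0.09 without control replicate 3. The ratio of APOA2 to APOA1 was 64.0 and 63.2 in the knockdown libraries and 51.4, 50.6 and 37.1 in the controls, without overlap (exact permutation p = 0.1). It too was chosen after the levels were seen.

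APOM, a lipocalin that carries sphingosine-1-phosphate on high density lipoprotein and the one member with a miR-19 site, lies on chromosome 6 from 31652416 to 31658210, plus strand (ENSG00000204444). It had 3.24 and 3.37 RPKM in knockdown, against 3.48, 0.927 and 2.61 RPKM in control. The knockdown libraries lay between the highest and the second control. The value of control replicate 2 came from 3 reads, with an exact Poisson 95% interval of 0.191 to 2.71 RPKM for counting error alone. The log2 difference was 0.55 (SE 0.46, 95% interval -0.60 to 1.69, limma adjusted p = 0.78), or 0.11 without control replicate 2, 0.85 without control replicate 1 and -0.0093 with all libraries thinned to its depth. BAG6, on the other strand, overlaps APOM and was at 30.4 to 43.9 RPKM, and reads of the pair cannot be separated since no source gives the strand setting.

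LCAT, which esterifies cholesterol on high density lipoprotein (ENSG00000213398, chromosome 16 from 67939750 to 67944131, minus strand), had 4.14 and 3.53 RPKM in knockdown, against 2.57, 4.69 and 1.96 RPKM in control. Control replicate 2 was highest here and came from 24 reads, with an interval of 3.01 to 6.98 RPKM. The log2 difference was 0.35 (SE 0.35, 95% interval -0.53 to 1.22, limma adjusted p = 0.80), 0.65 without that library, 0.12 without control replicate 3 and 0.07 after the trends against length and GC were removed. SLC12A4 overlaps LCAT on the same strand at 8.09 to 10.6 RPKM, so reads in the overlap are uncertain.

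APOH, beta-2-glycoprotein I, a phospholipid-binding plasma protein (ENSG00000091583, chromosome 17 from 66212033 to 66256525, minus strand), varied least, 1.22-fold from lowest to highest. It had 21.2 and 22.5 RPKM in knockdown, against 18.9, 18.5 and 21.4 RPKM in control. The groups overlapped, and the log2 difference was 0.15 (SE 0.15, 95% interval -0.21 to 0.52, limma adjusted p = 0.80).

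Across members the ratios within a library, in which the scaling to depth cancels, set APOE and APOC3 against APOB. APOE was 7.84 and 18.4 times APOB in the knockdown libraries and 6.62, 1.89 and 3.63 times APOB in the controls. APOC3 was 0.473 and 1.37 times APOB in knockdown and 0.445, 0.141 and 0.172 times APOB in control. APOE and APOC3 lay above all controls and APOB below them, so neither ratio could overlap between groups. Knockdown replicate 1 and control replicate 1 were close in both, and the exact permutation p was 0.2 for each. In all 9 ratios were computed, chosen after the levels were seen, and 6 of them did not overlap between groups. The share among ratios of other gene pairs was not computed, so this count is a description only.

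**Figure D3:**
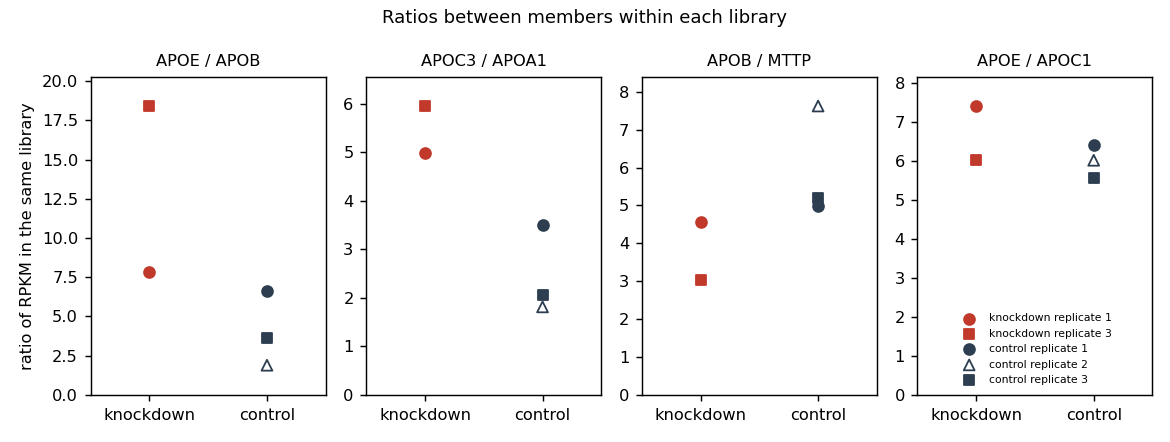
Ratio of RPKM values within each library for 4 pairs of members, knockdown left of control, 1 point per library. APOE over APOB is 7.84 and 18.4 in knockdown and at most 6.62 in control, while APOE over APOC1 overlaps between the groups.

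Exon length and base composition are given beside these values, and an association with the differences was not tested. APOB and MTTP, both below 0, have the longest exons, 14828 and 5398 bases, and 44.2% and 42.8% GC over their transcripts. APOE, APOC3 and APOC1, with the largest positive differences, have 2191, 866 and 1231 bases and 66.0%, 60.4% and 56.5% GC, whereas APOA1, with 1424 bases and 63.5% GC, was below 0. APOH, with 44.3% GC, and LCAT, with 2625 bases, were above 0. With the trends of log2 RPKM against exon length and GC taken out of every library, the log2 difference was -0.66 for APOB, -0.09 for MTTP, 0.49 for APOE, 0.77 for APOC3, 0.57 for APOC1 and -0.51 for APOA1. The directions of all 10 members were the same after this removal, and the members' median was 0.16. At an unadjusted limma p under 0.05, 0 members were then higher and 2 lower (APOA1 and APOB), beside 638 higher and 739 lower of all genes.

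The wider pathway was read from 7 lists of 117 genes in all, of which 93 were tested. No list gene was called with limma at an adjusted p under 0.05 in any of the fits, voom included, and at an unadjusted p under 0.05 7 were higher and 6 lower, against 3.80% and 2.54% of all genes. Both knockdown libraries were above all controls for 21 of the 93 and below them for 14, against 14.3% and 13.6% of all genes, and the median log2 difference was -0.03. Among 15 other apolipoproteins only APOA4, APOL2, APOO and CLU passed the filter, all 4 above 0, with a median of 0.35. The filter needs 3 libraries, so a gene that reaches 0.5 RPKM only in the 2 knockdown libraries cannot pass. APOL1 was left out this way, at 0.825 and 1.12 RPKM in knockdown and 0.186, 0.146 and 0.391 RPKM in control. APOL2, an intracellular relative of the lytic factor APOL1, had 23.8 and 26.3 RPKM in knockdown and 17.5, 18.4 and 15.3 RPKM in control (log2 difference 0.54, SE 0.15). Of 18 tested genes for particle assembly and export, 8 had a positive difference and 10 a negative one (median -0.01). TM6SF2, which promotes lipid loading of very low density lipoprotein, had 1.43 and 1.59 RPKM in knockdown and 0.747, 0.469 and 0.816 RPKM in control (0.78, SE 0.25). SMLR1, a small membrane protein linked in mice to secretion of such particles, had 2.57 and 2.54 RPKM in knockdown and 1.56, 1.63 and 1.44 RPKM in control (0.58, SE 0.18). In control replicate 2 the TM6SF2 value came from 2 reads and the SMLR1 value from 8. Of 13 genes for lipid transfer and maturation of high density lipoprotein, 8 had a positive difference and 5 a negative one (median 0.10). Hepatic lipase LIPC had 29.2 and 29.4 RPKM in knockdown and 24.9, 20.8 and 24.7 RPKM in control (0.32, SE 0.15), and endothelial lipase LIPG 0.730 and 0.592 RPKM in knockdown and 1.02, 1.17 and 1.34 RPKM in control (-0.53, SE 0.22).

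Of 15 tested lipoprotein receptors and their regulators, 5 had a positive difference and 10 a negative one (median -0.27), and 6 had both knockdown libraries below all controls, against 13.6% of all genes. At an unadjusted p under 0.05 limma had 4 of the 15 lower, against 2.54% of all genes, and 0 without control replicate 3 or without knockdown replicate 3. LRP6, a Wnt coreceptor of the same receptor family, had 5.95 and 3.55 RPKM in knockdown and 7.07, 9.83 and 8.16 RPKM in control (-0.78, SE 0.27). LRP8, a receptor for APOE, had 0.975 and 0.660 RPKM in knockdown and 1.51, 1.60 and 1.85 RPKM in control (-0.72, SE 0.23). Of 7 lipases and their inhibitors 4 were above 0. ANGPTL4, an inhibitor of lipoprotein lipase, had 12.3 and 16.99 RPKM in knockdown and 5.92, 2.89 and 7.85 RPKM in control (1.40, SE 0.41). Its value in control replicate 2 came from 14 reads, and its difference was 1.03 without that library. SEL1L, which helps lipoprotein lipase leave the endoplasmic reticulum, differed by -0.54 (SE 0.23).

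**Figure D4:**
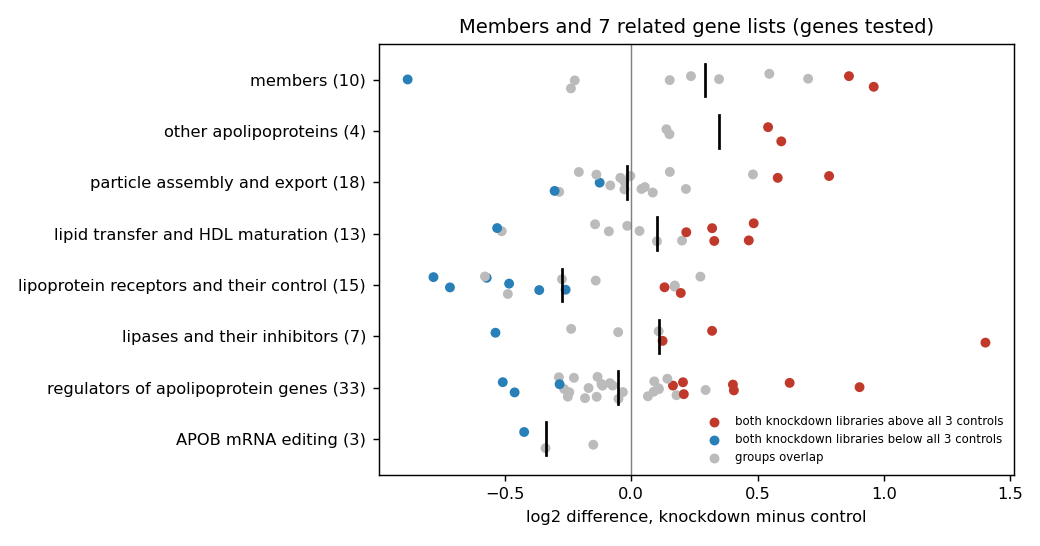
Log2 difference, knockdown minus control, of each tested gene in the 10 members and 7 related lists, with the number of genes tested in brackets, a bar at each median, and colour for groups that do not overlap. The members' median is 0.29 and that of the receptors -0.27, and ANGPTL4 at 1.40 is the point farthest to the right.

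Of 33 tested regulators of apolipoprotein genes, 15 had a positive difference and 18 a negative one (median -0.05). HNF4A, the nuclear receptor that activates many apolipoprotein genes, had 28.7 and 21.8 RPKM in knockdown and 26.2, 31.1 and 24.4 RPKM in control (-0.11, SE 0.19), and its groups overlapped. CEBPA, another activator in hepatocytes, overlapped too, with a log2 difference of 0.07 (SE 0.42). CREB3L3, a liver factor that activates APOA4 among other lipid genes, had 66.2 and 60.8 RPKM in knockdown and 42.1, 43.7 and 37.3 RPKM in control (0.63, SE 0.15), and 0.36 after the trends against length and GC were removed. CEBPD, an inflammation-responsive relative of CEBPA, had 31.2 and 44.2 RPKM in knockdown and 22.8, 15.1 and 21.9 RPKM in control (0.90, SE 0.26), and 0.48 after the same removal. All these list genes had a limma adjusted p of 0.71 or more. APOBEC1, the enzyme of APOB mRNA editing, was listed at 0 in all 5 libraries. The 3 tested genes of that list were below 0. Among them were A1CF, a cofactor of the enzyme, at -0.34 (SE 0.34), and SYNCRIP, an RNA-binding partner of that complex, at -0.42 (SE 0.18). The groups overlapped for A1CF, and its difference was -0.064 without control replicate 3 and -0.059 without knockdown replicate 3.

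Outside the members and lists, 4296 genes at a mean of 10 RPKM or more were ranked by likeness to the members' median course, as the root mean square distance over the 5 libraries. The nearest were SMOX (0.0666), AKT1S1 (0.0686), MYL12A (0.0695), MTCH2 (0.0698) and CCNB1IP1 (0.0707). That course was shallow, and the 5 genes had log2 differences of 0.13 to 0.17.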

How the data were processed

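RNA of 3 control and 3 knockdown libraries was sequenced, giving 1 table for the series. Its values are RPKM as the authors deposited them, per the labels. HISAT2 and the build GRCh38 are named in the submitters' processing notes. How reads were counted, and with which annotation, is not given in the sources used here. GENCODE release 29 holds all 58676 gene IDs and supplied symbols, coordinates, exon lengths and 3' UTRs. RPKM times exon length gave whole multiples of 1 read (tolerance 0.002) for 100% of values above 0 in the 5 libraries used, which gave the depths.

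The comparison used limma 3.58.1 in R 4.3.3 (mean-variance trend, no covariates) on log2(RPKM + 0.5), which understates changes of low genes. Genes needed 0.5 RPKM in 3 libraries. Error bars are SDs over libraries, and Poisson intervals cover counting error only. Single values were also tested by exact permutation, two-sided. The code was tested on simulated data. The members and lists were chosen with earlier results of these data known, so counts over them are descriptions. Named genes were all members, the 2 genes of largest moderated statistic in each list, 2 regulators (HNF4A and CEBPA), and the 5 genes nearest to the members' median course. P4HB, APOO, CLU and genes beside the members are named for their role or position. Promoters of 6 members were in the RefSeq table; APOA1, APOB, APOC3 and LCAT are not shown. GGGCGG was added to the motifs after the sequences were seen. Some genes and a motif that fall under these rules are not reported here.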

Additional observations from a re-analysis of the deposited data

How the results depend on the processing

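Under 18 alternatives the 10 members gave 180 values, of which 179 had the direction reported and none was called; the exception was APOM, at -0.0093 with reads thinned to the shallowest library. The count of members called was 0 in all of them. The count of genes called over the whole table was 0 except for 4 with voom and sample weights and 40 with the replicate number as a block, and 0 to 0 when each library was left out. In the block fit, with 1 residual degree of freedom, no member was called and the members' values included 0.52 for APOE and -0.77 for APOB. Deviations of same-numbered libraries correlated at -0.168 and 0.0179, and nothing in the labels pairs them. The members' median log2 difference, 0.29, was 0.15 with voom and sample weights, 0.16 with length and GC trends removed and 0.18 with thinned reads, and it ran from 0.17 (without control replicate 3) to 0.34 when 1 library was left out; the cause was not tested. Median shifts of all genes stayed between -0.04 and 0.05 in these fits. Unadjusted calls ranged from 129 (without knockdown replicate 3) to 1306 (without a filter) for higher genes, and from 62 (without knockdown replicate 3) to 932 (voom with sample weights) for lower genes. No member passed an unadjusted p of 0.05 with thinned reads, without control replicate 3 or without knockdown replicate 3. The list medians under each alternative were added after the data were seen: for receptors the median was -0.38 with trends removed and -0.20 without knockdown replicate 3, while the lipase list turned to -0.11 with trends removed, and assembly genes to 0.09 with trends removed and 0.15 without control replicate 3. Regulators turned to 0.085 without knockdown replicate 3. Where a knockdown library was left out, the lone one was assumed to vary like the controls. Depth limits APOM, LCAT, APOA1 and APOC3 in control replicate 2, and among list genes TM6SF2, APOA4, SMLR1 and ANGPTL4.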
